A study of Mus musculus with 6 samples.

Results

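Of the 17831 gene columns of the deposited count table, 9 were described here and had been chosen by name: Cd3d, Cd3e and Cd3g, which encode the CD3δ, CD3ε and CD3γ chains, Trac, Trbc1 and Trbc2, the constant genes of the αβ T cell receptor (TCR), the coreceptor gene Cd4, the kinase gene Lck and the surface glycoprotein gene Thy1. The rule named the genes and used no threshold on their values. Bulk RNAseq had been performed on cultured lung ILC2s, group 2 innate lymphoid cells, in 3 WT and 3 SIRPα KO libraries, and the comparison asks how ILC2s change when SIRPα, an inhibitory receptor for CD47, is absent. WT mice were CB57BL/6 as the labels spell it, and SIRPα KO mice carried the allele SIRPalphatm1Ynliu/J throughout the body, so the deletion was not restricted to ILC2s. All mice of the study were 6 to 8 weeks old. Both groups received intranasal IL-33, 0.5 μg a day for 3 days, and on day 4 ILC2s were sorted from the lungs and kept in culture with recombinant mouse IL-2 and IL-7. The number of mice behind each library is not given in the sources used here.

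In T cells the αβ TCR recognises peptide and MHC but cannot signal alone. CD3γ, CD3δ, CD3ε and the ζ chain carry the signal into the cell, where LCK, brought in by CD4 or CD8, phosphorylates their tyrosine motifs and ZAP-70 binds them. ILC2s lack a surface-expressed TCR, yet they share a lymphoid progenitor and several transcription factors with T cells. Transcripts from TCR loci are known in innate lymphocytes, and lung ILC2s carry Thy1 on their surface. The gate for the sort kept CD45+, ST2+, CD127+ cells and removed cells stained by a lineage cocktail that included antibodies to CD3ε, CD4, CD5, TCRβ and TCRγδ, so the proteins of several of these genes had been used to remove T cells. The cocktail also held antibodies to CD45R/B220 and CD335, markers of B and NK cells, and to CD11b, CD11c, Gr1, FcεRIα and Ter119. Transcripts were not part of the gate.

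The libraries held 13980499 to 19051507 reads. Gata3 and Il1rl1, defining ILC2 genes, had at least 12774 and 5675 reads in every library. Sirpa itself had 149, 96 and 73 reads in WT and 48, 85 and 28 in SIRPα KO. Scaled for depth, every SIRPα KO library was lower (1.74 to 4.46 CPM, read counts scaled by the effective library size) than every WT library (4.83 to 8.57 CPM), without passing the test (log2 fold change -1.12, standard error (SE) 0.42, adjusted p = 0.115 from edgeR). WT replicate 3 differed more from WT replicates 1 and 2 (chi-squares of 81.2 and 67.0 per degree of freedom over genes) than these did from each other (30.6), and SIRPα KO replicate 1 alone held reads of the eosinophil genes Epx (151) and Prg2 (145), against at most 17 elsewhere. WT replicates 1 and 2 share a library code, as do SIRPα KO replicates 2 and 3. Each such pair differed by more than counting noise (10.8 for the SIRPα KO pair), which cannot tell whether both libraries hold the same RNA. The pairs were kept as separate libraries. SIRPα KO replicate 1, of another code, differed from replicates 2 and 3 by 8.41 and 12.3. The 2 libraries of a shared code may still come from the same mice, and p-values then measure only the spread between these libraries, which may be technical.

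Trbc1 and Trbc2 are 95.6% identical over 521 aligned bases, where their sequences show how far reads can be assigned to either. The aligned bases are 70.7% of the Trbc1 model and 75.3% of the Trbc2 model, and the rest was not compared. In the GENCODE M21 transcript models (mm10) Trbc1 lies at chr6:41538218-41539881 and Trbc2 at chr6:41546730-41548352, both on the plus strand. Their first 259 bases are identical, and bases 251 to 518, the rest of the coding part up to the stop codon, are printed here 5′ to 3′, with the differing bases in capitals.
Trbc1: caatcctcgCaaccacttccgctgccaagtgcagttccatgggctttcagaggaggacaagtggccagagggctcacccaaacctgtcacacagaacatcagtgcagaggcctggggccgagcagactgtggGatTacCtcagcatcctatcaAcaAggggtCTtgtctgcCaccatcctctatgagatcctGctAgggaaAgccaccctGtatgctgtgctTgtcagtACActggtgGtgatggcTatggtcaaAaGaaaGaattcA
Trbc2: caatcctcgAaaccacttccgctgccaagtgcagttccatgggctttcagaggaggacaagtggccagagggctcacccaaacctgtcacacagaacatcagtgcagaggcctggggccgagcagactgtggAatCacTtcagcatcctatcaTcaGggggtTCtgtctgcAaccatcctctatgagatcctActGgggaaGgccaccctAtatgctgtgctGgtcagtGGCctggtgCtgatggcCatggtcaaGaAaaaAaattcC
All 23 differences within the 521 aligned bases lie in this stretch. The first, C260A (Trbc1 base first, counted from the first base of the model), is 123 bases before the next, G383A. Of 100-base windows over the 521 aligned bases, 43.4% were identical in both genes. Reads from the bases beyond the alignment are not covered by this share. The authors' estimated counts split such shared reads between the genes, so the separate values are uncertain while the sum is less so.

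The 3 CD3 genes are neighbours on chromosome 9. Cd3g (chr9:44969572-44980431, minus strand) and Cd3d (chr9:44981786-44987339, plus strand) start head to head 1355 bases apart, and Cd3e (chr9:44998740-45009627, minus strand) lies 11401 bases beyond Cd3d. Their RefSeq promoters (GRCm38.p6, 250 bases before to 50 after the start) are printed because these neighbours had very different levels. Capitals mark matches on either strand to the E box CANNTG and to the GATA motif AGATAA.
Cd3g, chr9:44980382-44980681, minus strand: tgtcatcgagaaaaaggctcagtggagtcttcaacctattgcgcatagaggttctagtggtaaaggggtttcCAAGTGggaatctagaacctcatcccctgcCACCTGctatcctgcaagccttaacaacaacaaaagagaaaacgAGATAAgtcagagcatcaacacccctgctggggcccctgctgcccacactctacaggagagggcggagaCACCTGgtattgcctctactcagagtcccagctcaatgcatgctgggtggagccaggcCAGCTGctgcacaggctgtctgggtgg
Cd3d, chr9:44981536-44981835, plus strand: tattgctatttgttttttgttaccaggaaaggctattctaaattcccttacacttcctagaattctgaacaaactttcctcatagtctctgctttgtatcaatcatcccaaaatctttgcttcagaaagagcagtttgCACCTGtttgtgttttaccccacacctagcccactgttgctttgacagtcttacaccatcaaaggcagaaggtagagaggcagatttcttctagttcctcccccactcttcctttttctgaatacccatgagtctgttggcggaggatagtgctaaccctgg
Cd3e, chr9:45009562-45009861, minus strand: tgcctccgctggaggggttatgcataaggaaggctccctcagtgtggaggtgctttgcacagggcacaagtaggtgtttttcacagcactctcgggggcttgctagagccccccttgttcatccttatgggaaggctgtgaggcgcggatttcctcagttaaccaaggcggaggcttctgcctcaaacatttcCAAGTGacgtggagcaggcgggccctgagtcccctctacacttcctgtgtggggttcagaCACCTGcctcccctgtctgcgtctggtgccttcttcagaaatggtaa
The Cd3g promoter held 4 E boxes and 1 GATA match, the Cd3d promoter 1 E box and the Cd3e promoter 2 E boxes. No match overlapped another. None of these 3 held the ETS core CCGGAA, the RUNX motif TGTGGT. The TATA box letters TATAAA and the TCF letters CTTTGAA were not found in them either. Among 32851 RefSeq promoters of the same length, 72.3% held an E box, 11.2% the GATA letters, 14.9% the ETS core, 16.8% the RUNX letters, 13.6% TATAAA and 5.1% the TCF letters. The matches describe letters only.

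Of the 9 genes, 6 passed the filter on low counts and were tested: Cd3e, Cd3g, Trbc1, Trbc2, Lck and Thy1. Of these, 5 were called lower in SIRPα KO, where 5.81% of the 13623 genes tested were called lower (edgeR's quasi-likelihood test, Benjamini-Hochberg adjusted p under 0.05). The same 5 genes had no overlap between the groups, as did 21.2% of all genes tested in the same direction. Each of the 5 had at least 19 reads in every library, so none passed the filter through WT alone. Cd3d, Trac and Cd4 had too few reads to be tested. In bulk libraries, fewer cells of a type and less RNA per cell cannot be told apart.

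**Figure D1:**
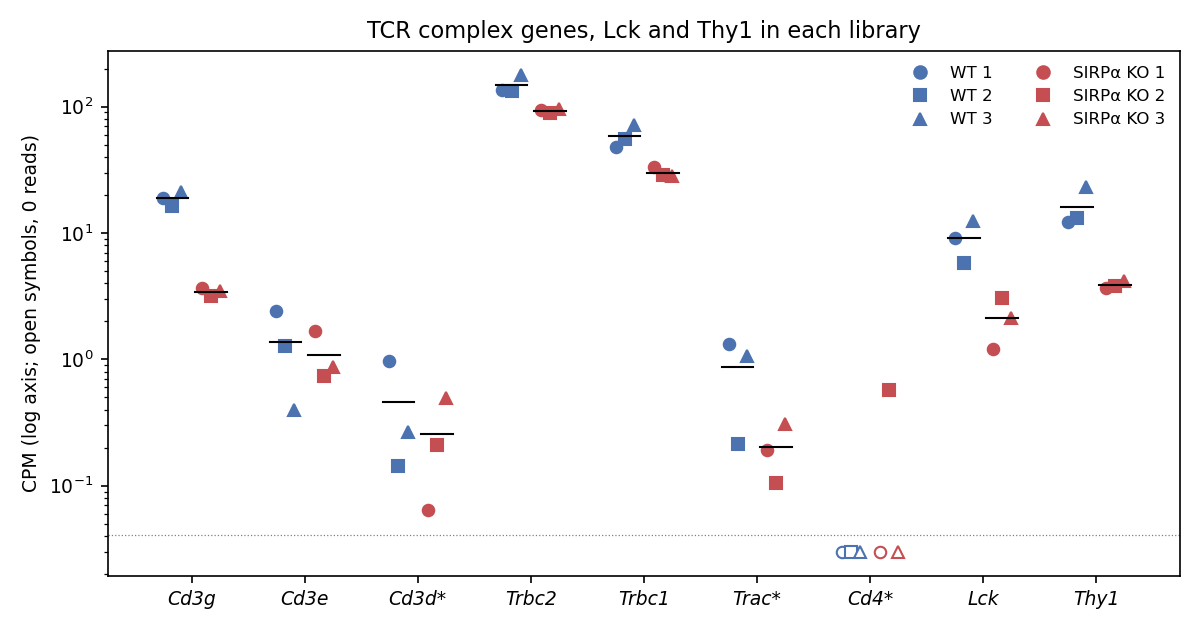
Level (CPM, read counts scaled by the effective library size, log axis) of each gene in the 3 WT libraries (blue) and the 3 SIRPα KO libraries (red), with the group mean as a line; asterisks mark genes below the filter and open symbols 0 reads. Cd3g, Trbc1, Trbc2, Lck and Thy1 were lower in every SIRPα KO library than in every WT library, and Cd3e, Cd3d, Trac and Cd4 overlapped.

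Cd3g, which encodes the CD3γ chain that pairs with CD3ε, had the largest log2 fold change of the 6 genes tested. It had 326, 230 and 320 reads in WT and 57, 60 and 56 in SIRPα KO. On the CPM scale this was 18.8 ± 2.42 (SD, n = 3) in WT and 3.42 ± 0.251 (SD, n = 3) in SIRPα KO. All WT libraries lay well above all SIRPα KO libraries, and the fall was 5.48-fold (log2 fold change -2.45, SE 0.22, adjusted p = 0.00375 from edgeR).

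Cd3e and Cd3d, the other CD3 chain genes, were scarce and did not separate the groups. Cd3e had 42, 18 and 6 reads in WT and 26, 14 and 14 in SIRPα KO. The WT libraries covered the whole SIRPα KO range, and the log2 fold change was -0.33 (SE 0.72, adjusted p = 0.780 from edgeR). With WT replicate 1 left out the value turned to 0.38, so its sign rested on that library. Reads from the antisense gene Gm48719 and the same-strand gene Gm48720, which overlap Cd3e, cannot be told apart from its own in unstranded counts. Cd3d had 17, 2 and 4 reads in WT and 1, 4 and 8 in SIRPα KO, and without the filter its log2 fold change was -0.82 (adjusted p = 0.692 from edgeR). The number of Cd3g reads per Cd3e read was 7.76, 12.8 and 53.3 in WT and between 2.19 and 4.29 in SIRPα KO. These ratios did not overlap, and a two-sided exact permutation test gave p = 0.1, the smallest that 3 against 3 libraries allow (adjusted p = 0.125 over 5 ratios).

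The β chain constant genes were the most abundant of the 9. Trbc2 had 2352, 1851 and 2704 reads in WT and 1462, 1709 and 1540 in SIRPα KO, or 149 ± 26.4 and 92.9 ± 2.96 CPM (SD, n = 3 each). Every SIRPα KO library was lower than every WT library, by 1.60-fold between the groups (log2 fold change -0.68, SE 0.15, adjusted p = 0.0294 from edgeR). Trbc1 had 838, 782 and 1083 reads in WT and 518, 549 and 454 in SIRPα KO, or 58.5 ± 12.0 and 30.0 ± 2.69 CPM (SD, n = 3 each). It was 1.95-fold lower (log2 fold change -0.96, SE 0.19, adjusted p = 0.0228 from edgeR), again with no overlap. Trbc2 reads per Trbc1 read were 2.81, 2.37 and 2.50 in WT and 2.82, 3.11 and 3.39 in SIRPα KO. The lowest SIRPα KO ratio was barely above the highest in WT (exact permutation test, p = 0.1, adjusted p = 0.125).

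Trac, the constant gene of the α chain, did not accompany the β chain genes in level. It had 23, 3 and 16 reads in WT and 3, 2 and 5 in SIRPα KO. WT replicate 2 lay within the SIRPα KO range and the other WT libraries above it, and without the filter its log2 fold change was -2.05 (adjusted p = 0.210 from edgeR). Each Trac read stood against 139, 878 and 237 Trbc1 and Trbc2 reads in WT and 660, 1129 and 399 in SIRPα KO (exact permutation test, p = 0.3). Cd4, the coreceptor that brings LCK to the TCR, was at 0 reads in all WT libraries and in 2 of the 3 SIRPα KO libraries. SIRPα KO replicate 2 alone held 11 reads. No fold is given for it.

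Lck and Thy1 both fell by over 4-fold. Lck had 158, 81 and 187 reads in WT and 19, 58 and 34 in SIRPα KO, or 9.08 ± 3.31 and 2.12 ± 0.915 CPM (SD, n = 3 each). The lowest WT library stayed above the highest SIRPα KO library, and the fall was 4.25-fold (log2 fold change -2.09, SE 0.44, adjusted p = 0.0282 from edgeR). Thy1, whose product is a surface marker of T cells and ILC2s, had 211, 184 and 348 reads in WT and 57, 72 and 67 in SIRPα KO, or 16.1 ± 6.04 and 3.86 ± 0.266 CPM (SD, n = 3 each). WT replicate 3 was the highest and the SIRPα KO libraries were close to each other, with a 4.16-fold fall (log2 fold change -2.06, SE 0.31, adjusted p = 0.0139 from edgeR). Lck lies at chr4:129548344-129573641 on the minus strand, with the miRNA gene Mir8119 inside it, and Thy1 at chr9:44043384-44048579 on the plus strand.

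These calls changed with the library left out. Leaving out SIRPα KO replicate 1, 2 or 3 left 0 of the 9 genes called by edgeR, with 5 at an unadjusted p under 0.05 each time, and only 16 to 17 genes called over the whole table. In those fits 2991 of 14242, 2935 of 14146 and 3183 of 14141 genes tested had an unadjusted p under 0.05. The adjusted p of Cd3g was then 0.0505, 0.0571 and 0.0516, and its log2 fold change -2.49, -2.39 and -2.46. Leaving out WT replicate 1, 2 or 3 left 4, 5 and 5 of the 9 genes called, beside 1111, 2309 and 2606 genes over the table. Without WT replicate 1, Lck was no longer called (adjusted p = 0.0534 from edgeR). The cause of these changes was not tested. DESeq2 called the same 5 genes, in a table where it called 10.9% of genes lower.

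Fold changes followed transcript length over the whole table. When the tested genes were split by length into 10 bins of like size, the shortest bin had a median log2 fold change of -0.68 and the longest 0.44, and all 5 genes called here have a model shorter than the median of 2810 bases. Genes of the length of Trbc1 (737 bases) and Trbc2 (692 bases) had a median of -0.68, those of the length of Cd3g (1023 bases) -0.41, of Thy1 (1735 bases) -0.23 and of Lck (2185 bases) -0.10. With length and GC content corrected for, Cd3g (log2 fold change -2.14, adjusted p = 0.00253 from edgeR), Thy1 (-1.74, adjusted p = 0.0126) and Lck (-1.96, adjusted p = 0.0335) were still called lower, beside 4.40% of all genes. Trbc1 (-0.44, adjusted p = 0.0791) and Trbc2 (-0.11, adjusted p = 0.536) were not. The models of both Trbc genes hold the constant part alone, so the length of the transcripts counted, and with it the size of their correction, is uncertain.

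**Figure D2:**
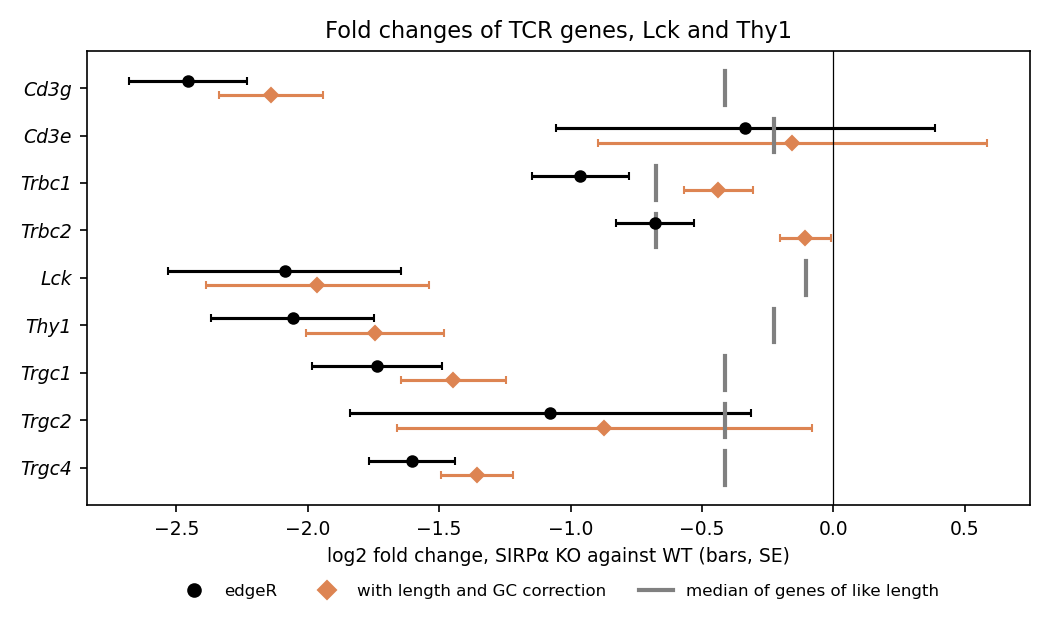
Log2 fold change of SIRPα KO against WT with SE for the tested genes, and for the γ chain constant genes, without (black) and with (orange) a correction for length and GC content; grey lines give the median of the genes in the same bin of transcript length. Cd3g, Lck, Thy1, Trgc1 and Trgc4 lay far below their grey line, Trbc2 lay on it, and the bars of Cd3e and Trgc2 reached it.

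Between genes, levels were compared as CPM per kilobase of the transcript model. In WT the order of mean levels was Trbc2 (215), Trbc1 (79.4), Cd3g (18.3), Thy1 (9.27), Lck (4.15), Cd3e (0.933), Trac (0.925), Cd3d (0.285) and Cd4 (0). From Trbc2 down to Cd3e each gene was separated from the next in every WT library, while Cd3e, Trac and Cd3d overlapped. In SIRPα KO the mean levels were 134 for Trbc2, 40.7 for Trbc1, 3.35 for Cd3g, 2.22 for Thy1, 0.971 for Lck, 0.744 for Cd3e, 0.216 for Trac and 0.159 for Cd3d. The order was the same, but Lck overlapped with Cd3e, and Trac with Cd3d. Cd3g, 19.7 times Cd3e in WT on this scale, was 4.49 times Cd3e in SIRPα KO.

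Because the members include constant genes of the αβ TCR, the other receptor genes of the table were read beside them. The γ chain constant genes Trgc1 and Trgc4 fell, with larger fold changes than the β chain genes. Trgc4 had 1913, 1383 and 1964 reads in WT and 505, 805 and 594 in SIRPα KO (log2 fold change -1.60, SE 0.17, adjusted p = 0.00586 from edgeR). Trgc1 had 751, 490 and 871 reads in WT and 166, 268 and 258 in SIRPα KO (log2 fold change -1.74, SE 0.25, adjusted p = 0.0129 from edgeR). For neither gene did the groups overlap, and both were called with the length and GC correction too. Trgc1 is 96.9% identical over 649 bases to Tcrg-C3, not analysed here, so its reads may include those of that copy. Trbc1 and Trbc2 reads per γ constant read were 1.19, 1.39 and 1.33 in WT and 2.91, 2.08 and 2.34 in SIRPα KO, without overlap (exact permutation test, p = 0.1, adjusted p = 0.125). Trdc, the δ constant gene, had 9, 12 and 0 reads in WT and 10, 7 and 2 in SIRPα KO.

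Variable segments of the β and γ loci held few reads against their constant genes, but those of the δ locus did not. Of 142 annotated V genes of the 4 receptor loci, 4 had a column, and none of the 70 J and 4 D genes had one. The smallest total of any column of the table was 10 reads, and V, D and J genes without a column were not analysed here. The 1 β chain V gene, Trbv1, had 7, 2 and 0 reads in WT and 0, 3 and 1 in SIRPα KO. The γ chain gene Trgv2 had 4, 5 and 3 reads in WT and 9, 6 and 5 in SIRPα KO. The δ locus genes Trdv4 and Trdv2-2 together had 38, 19 and 29 in WT and 9, 11 and 10 in SIRPα KO, most of them on Trdv4. The δ constant gene Trdc had fewer reads than these in every library but SIRPα KO replicate 1 (10 against 9). Pooled over loci, V reads were 0.482% to 0.830% of constant gene reads in WT and 0.560% to 0.673% in SIRPα KO, ranges that overlap. These pooled shares set V reads mostly of the δ locus against constant reads mostly of the β and γ loci.

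Markers of other lymphocytes were read for the same libraries, since reads of T cells or other cells would add to the 9 genes. Among 12 αβ T cell surface genes 9 had a column, and their levels differed widely. Cd5, Cd6, Cd40lg and Ctla4 did not exceed 21 reads in any library, while Cd2, Cd27, Cd28, Cd96 and Icos did. Cd5 had 0 to 8 reads a library, Cd6 0 to 20, Cd40lg 0 to 6 and Ctla4 4 to 21, while Cd8a and Cd8b1 were not analysed here. Cd28 had 22 to 89 reads, Cd96 110 to 222 and Cd27 9 to 84. Icos, which ILC2s also use, held most of the list (3426 to 4624 reads). Of 6 genes tested 1 was called lower, beside 5.81% of all genes. It was the adhesion receptor gene Cd2, with 34, 41 and 87 reads in WT and 9, 7 and 10 in SIRPα KO (log2 fold change -2.75, SE 0.58, adjusted p = 0.0277 from edgeR). The list summed to 253 to 322 CPM in WT and 223 to 238 CPM in SIRPα KO.

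Of 9 genes of naive and regulatory T cells 8 had a column and 7 were tested. Foxp3, which defines regulatory T cells, had 2 to 11 reads a library, Tcf7 6 to 129, Satb1 102 to 268, Ikzf2 167 to 382, Lef1 240 to 454, and Ccr7 466 to 965. Called lower was 1 gene, beside 5.81% of all genes. This was Igfbp4, with 68 to 196 reads and a log2 fold change of -1.49 (SE 0.24, adjusted p = 0.0150 from edgeR). The list summed to 106 to 144 CPM in WT and 82.8 to 94.5 CPM in SIRPα KO. Of 8 γδ TCR genes 7 had a column, and the sum of 136 to 188 CPM in WT and 44.4 to 58.0 CPM in SIRPα KO lay almost wholly on Trgc1 and Trgc4. Trgc2 had 2 to 20 reads a library, and Sox13 and Blk (0 to 7 each) and Cd163l1 (0 to 11), genes of γδ T cell subsets, were near 0. Of the genes for TCR rearrangement, Rag1, Rag2 and Dntt were not analysed here, and Ptcra, the pre-TCR α chain gene, had 0 to 17 reads. The 4 tested DNA repair genes were Lig4 (38 to 87 reads), Dclre1c (113 to 296), Xrcc4 (112 to 172) and Prkdc (172 to 848). By edgeR 0 of them were called and 2 had an unadjusted p under 0.05, as did 4355 of all 13623 genes tested. DESeq2 called 2 higher, where it called 1757 of 12977 genes higher.

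Most of the B cell and NK cell genes tested were lower in SIRPα KO as well. Of 8 B cell genes 7 were tested and 5 were called lower, beside 5.81% of all genes. With the length and GC correction 2 were called lower, beside 4.40% of all genes, and their median log2 fold change was -2.50 against -2.66 without it. The list summed to 218 to 479 CPM in WT and 23.5 to 86.2 CPM in SIRPα KO. Of 8 NK and ILC1 genes 6 were tested, 4 were called lower (3 with the correction), and the list summed to 19.4 to 27.3 CPM in WT and 1.98 to 4.22 CPM in SIRPα KO. Eomes, a transcription factor of NK cells, had 70, 41 and 51 reads in WT and 5, 0 and 0 in SIRPα KO. Of 8 myeloid genes tested 1 was called higher, beside 5.94% of all genes. The myeloid list summed to 48.1 to 136 CPM in WT and 88.0 to 132 CPM in SIRPα KO. The part of RNA from T, B, NK or other cells in the values of the 9 genes was not tested, and the gate had been set to remove T, B and NK cells.

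**Figure D3:**
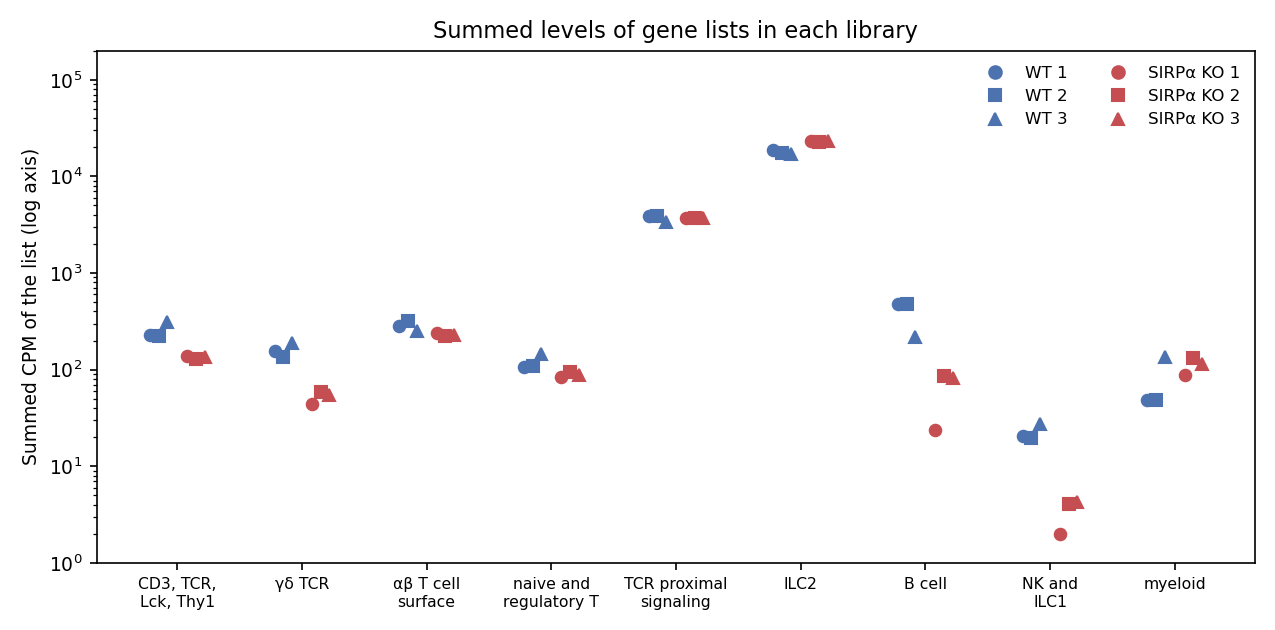
Summed CPM (log axis) of the 9 genes and of gene lists in each WT (blue) and SIRPα KO (red) library. The 9 genes summed to 224 to 309 CPM in WT and 130 to 137 CPM in SIRPα KO. SIRPα KO was also lower without overlap in the γδ TCR, αβ T cell surface, and naive and regulatory T cell lists. The same held for the B cell and the NK and ILC1 lists, and the list of TCR proximal signaling genes overlapped. Of single genes tested, 21.2% were lower without overlap. Icos made up most of the αβ T cell surface sum, and Ccr7, Lef1 and Ikzf2 of the naive and regulatory list overlapped.

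ILC2 genes moved in both directions. Of 20 tested, 3 were called higher and 2 lower, beside 5.94% and 5.81% of all genes. DESeq2 called 6 higher and 2 lower, where it called 1757 and 1413 of 12977 genes. The length and GC correction gave 3 higher and 5 lower, where it gave 549 and 599 of 13623 genes. The list, most of it Il5, summed to 17180 to 18770 CPM in WT and 22870 to 23480 CPM in SIRPα KO. Of 12 transcription factor genes that T cells and ILC2s share, 10 were not called, among them Gata3 (log2 fold change 0.10, SE 0.11, adjusted p = 0.566 from edgeR). Zbtb7b, which encodes ThPOK, a factor of CD4 T cell commitment, had 544, 391 and 435 reads in WT and 224, 262 and 183 in SIRPα KO and was called lower (log2 fold change -1.16, adjusted p = 0.0144 from edgeR). Runx1 was called higher (log2 fold change 0.58, adjusted p = 0.0482 from edgeR), but not with the length and GC correction (0.09, adjusted p = 0.809).

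Downstream of the CD3 chains, 34 genes of TCR proximal signaling were read, of which 33 were tested. By edgeR 3 were called lower and 1 higher, beside 5.81% and 5.94% of all genes, and their median log2 fold change was -0.18 against -0.03 over all genes tested. Lat, the membrane scaffold that ZAP-70 phosphorylates, was at 73.6 ± 7.24 CPM in WT and 34.5 ± 2.21 in SIRPα KO (SD, n = 3 each; log2 fold change -1.09, adjusted p = 0.0101). Zap70 was at 129 ± 4.95 and 76.5 ± 7.39 CPM (log2 fold change -0.75, adjusted p = 0.0157 from edgeR). Cd247, the gene of the ζ chain, was at 16.2 ± 1.71 and 8.83 ± 1.81 CPM (log2 fold change -0.88, adjusted p = 0.0489 from edgeR). The higher one was Ptprc, which encodes the phosphatase CD45, at 346 ± 119 CPM in WT and 645 ± 19.7 in SIRPα KO (log2 fold change 0.90, adjusted p = 0.0484 from edgeR).

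The length and GC correction changed which of these were called: Lat (adjusted p = 0.0906) and Ptprc (adjusted p = 0.0656) were not called any more. With it 4 genes of the list were called lower and 0 higher, and 18 had an unadjusted p under 0.05. Over all genes, that fit called 599 of 13623 lower, and 3599 had an unadjusted p under 0.05. Cd247 was past the threshold neither without WT replicate 1 (log2 fold change -0.79, adjusted p = 0.0930 from edgeR) nor without WT replicate 2 (-0.94, adjusted p = 0.0517), nor was Ptprc without WT replicate 1 (0.97, adjusted p = 0.0742). With 1 library left out, the log2 fold change ranged from -0.98 to -0.71 for Cd247 and from 0.65 to 1.12 for Ptprc. Leaving out WT replicate 3 raised the calls from 4 to 8, and those over the whole table from 1600 of 13623 to 2606 of 14143. Leaving out any 1 SIRPα KO library left 0 of the list called, with 8 to 9 at an unadjusted p under 0.05, beside 2935 to 3183 genes over the table. The adaptor gene Lcp2 (log2 fold change -0.0048) and the kinase gene Fyn (-0.11), a relative of Lck, had adjusted p values of 0.985 and 0.691 from edgeR, and Themis had 0 to 8 reads a library.

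**Figure D4:**
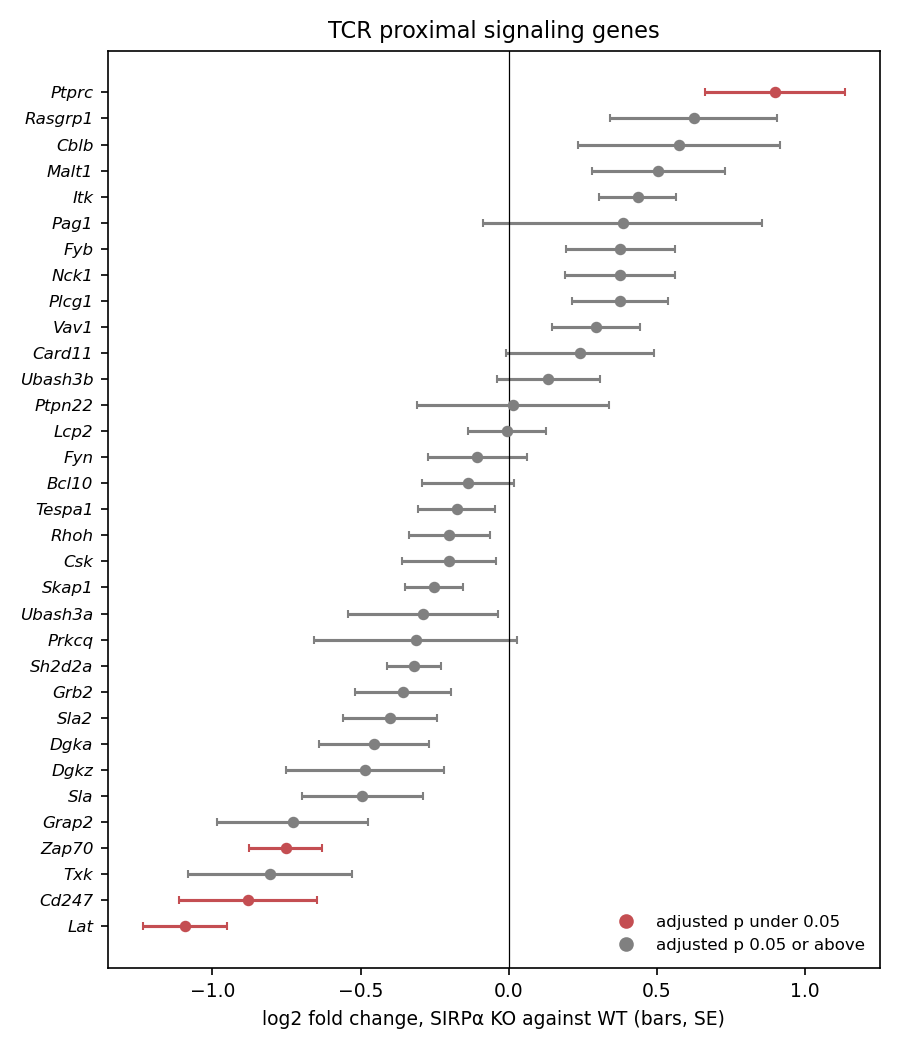
Log2 fold change of SIRPα KO against WT with SE for the 33 tested genes of TCR proximal signaling, ordered by size; red marks an adjusted p under 0.05 from edgeR. Lat, Cd247 and Zap70 were called lower and Ptprc higher, and the other 29 were not called.

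The genes most like Thy1, Lck and Cd3e over the 6 libraries were found by their pattern of levels. Among 9012 tested genes with an average of at least 3 on the log2 CPM scale, the pattern most like that of Thy1 was that of Tff1, with a root mean square difference of 0.12 in centred log2 CPM, then Crip1 (0.15). The pattern most like that of Lck was that of the pseudogene Ftl1-ps2 (0.31), then Trgc1 (0.33). For Cd3e the most like were F2rl2 (0.32) and Slc39a8 (0.34). Trac had too few reads for this comparison.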

How the data were processed

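Sorted and cultured lung ILC2s were profiled by bulk RNAseq in 3 WT and 3 SIRPα KO libraries, prepared from 10 pg of RNA each with the SMARTer Ultra Low Input kit. The authors deposited estimated counts per gene, not normalized, made with Partek and STAR (Partek 10.0 and STAR 2.7.8 in the submitters' processing notes, other versions in the methods) on mm10 with GENCODE M21. The values were rounded to whole numbers. The smallest total of a gene was 10 reads.

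The quasi-likelihood test of edgeR 4.0.16 (R 4.3.3) was fitted to the 13623 genes past filterByExpr (minimum count 10, minimum total 15) with TMM factors and genotype alone, and p-values were adjusted over all of them by Benjamini-Hochberg with a threshold of 0.05. DESeq2 1.42.0 was an alternative. CPM values use the TMM-scaled library sizes. Transcript length is that of the longest coding model. The correction used splines with 5 degrees of freedom for length and GC content, fitted per library to 8918 genes outside the lists and used as an offset. Near-identical copies were searched with BLAST+ at 95% identity or more. The gene names of the table matched GENCODE M21 for 17400 genes directly and 218 through synonyms. Ratios of reads were tested by two-sided exact permutation. The programs were tested on simulated counts. Precision is limited for genes with few reads, and intervals for counting error are not given because libraries differed by more than counting noise.

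The members, gene lists, tests and alternatives were chosen with earlier results of these data known. Named were all members, the genes called in the TCR proximal signaling list, the genes of the T cell, γδ TCR and rearrangement lists as ranges (some list genes are not reported here), the V segments, and for Cd3e, Lck and Thy1 the 2 genes most like them (the rule also held Trac, which was below the filter). Eomes, Gata3, Zbtb7b, Runx1, Lcp2 and Fyn were chosen after their values were seen. Lists of granulocyte and mast cell genes (0 of 2 tested called by edgeR, 1 at an unadjusted p under 0.05, 0 called by DESeq2) and lung structural genes (2 of 4 tested called lower, 1 higher) were also read. Over all genes, edgeR called 5.81% lower and 5.94% higher, and 4355 of 13623 had an unadjusted p under 0.05. Alternatives were other scaling, filters, the replicate block, libraries of one code summed, the length and GC correction, and leaving out each library.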

Additional observations from a re-analysis of the deposited data

How the results depend on the processing

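The direction of Cd3g, Trbc1, Trbc2, Lck and Thy1 held under every alternative run. Against 5 of them called and 1600 genes in all, DESeq2 called 5 and 3170, the length and GC correction 3 and 1148, that correction with the replicate block 2 and 390, and summing the libraries of one code 0 and 10. In that last fit each code was 1 sample, which leaves 2 against 2. Of the 7 genes then tested among the 9, 6 had an unadjusted p under 0.05, as did 3359 of 14581 genes over the table. Leaving out 1 library gave 0 to 5 of these genes and 16 to 2606 over the table, the low values without a SIRPα KO library and the highest, 2606, without WT replicate 3. Of the TCR proximal signaling list, 4 genes were called, 6 by DESeq2, 2 without the filter on low counts, 0 with the libraries of one code summed, 0 with the length and GC correction and the replicate block together, and 0 to 8 with 1 library left out. The causes were not tested.

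The log2 fold change of Cd3e ranged from -0.76 (without WT replicate 3) to 0.38 (without WT replicate 1) with 1 library left out, and was 0.055 with libraries of one code summed and 0.087 with the length and GC correction and the replicate block. Replicate numbers did not pair the libraries (correlations of same-numbered deviations -0.143 to 0.191), and the replicate block alone called 1118 genes, the same 5 among the 9, and 3 of the list. Upper quartile factors moved the split from 809 higher and 791 lower to 703 and 1010, and the median of all genes from -0.03 to -0.13, with the same 5 genes called lower. Depth limits Cd3d, Trac and Cd4, each with at most 23 reads in a library.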
